A study of Mus musculus with 6 samples.

Results

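The unfolded protein response was examined through 35 genes of endoplasmic reticulum (ER) stress signalling and protein folding in mouse colonic mucosa. The genes were taken by their platform gene symbol, with the brightest probe set of each gene over all 6 arrays. All 35 had a probe set, 34 passed the filter on dim signals and were tested, and the kinase-like gene Trib3 lay below it. They were 35 of 18193 genes with a named probe set, of which 12437 were tested. RNA came from C57BL/6 colonic mucosa, whose cells the labels call intestinal epithelial cells. The label p38a knockout was carried by 3 arrays and the label wild type by 3, lettered A to C in each group, and neither group was treated. Mapk14 encodes p38a, a kinase activated by stress. The labels give no promoter, Cre line or age. Since nothing in them tells whether the replicates were different mice, the p-values cover the spread among these samples alone, and that spread may be technical.

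Proteins that enter the ER are folded there by chaperones and oxidised by disulfide isomerases, and those that fail are returned to the cytosol for degradation. When unfolded protein builds up, the sensors IRE1, PERK and ATF6 signal to the nucleus through XBP1, ATF4 and the cleaved part of ATF6, and chaperone and degradation genes are transcribed. The gut has an epithelial form of IRE1, encoded by Ern2 and found mainly in goblet cells, which fold large amounts of mucin. Plasma cells and pancreatic acinar cells are other heavy users of the same machinery.

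The question was whether transcripts of this system differed with the genotype on the label. No member passed in limma over all 12437 genes, where 0 passed (0% of all genes) and the smallest adjusted p of a member was 0.902. None of the 34 had an unadjusted p under 0.05, against 3.94% of all genes tested (2.2% lower and 1.74% higher). In log2(signal + 16) after quantile normalization, which is the scale of all levels and differences below, the members' median difference was -0.05 (knockout minus wild type), with 23 lower and 11 higher, and that of all genes was 0.02, with 46.8% of all genes below 0. Single differences ran from -0.64 for Hyou1 to 0.33 for Pdia3. With signals as deposited the median of all genes lay 0.43 above 0 (0.20 with arrays centred on their medians), and relative to that median 17 members were lower and 17 higher. The plot of differences shows the members with their 95% intervals, and an interval that spans 0 does not show that the groups were alike.

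**Figure D1:**
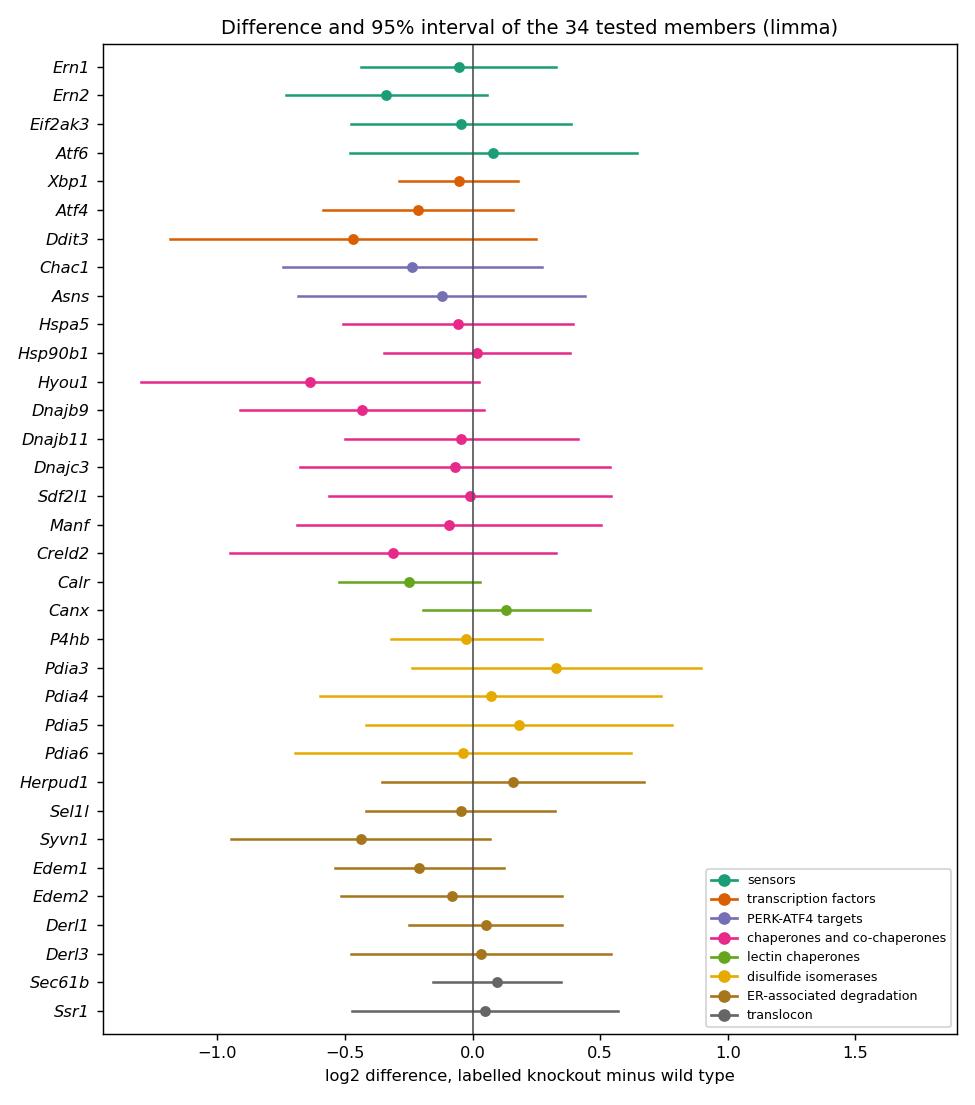
Each point is the log2 difference of 1 member, labelled knockout minus wild type, and the line its 95% interval in limma (3 arrays per group), coloured by role. All 34 intervals span 0, from -0.64 for Hyou1 to 0.33 for Pdia3 at the points.

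Array brightness and the Gapdh quality ratio moved with the label. The 2% trimmed mean of the deposited signal ran from 192 to 222 in the arrays labelled knockout and from 117 to 188 in wild type, with wild type C the dimmest. The Gapdh ratio, control signal at the 3' end over that at the 5' end, ran from 0.859 to 0.954 and from 0.989 to 1.45. The same ratio for Actb overlapped, at 1.82 to 2.27 and 2.24 to 3.25. All 10 colon epithelium markers passed the filter, with summed signals of 70716 to 81204 in the arrays labelled knockout and 70607 to 79898 in wild type. Mapk14 itself was higher in the arrays labelled knockout, by 0.41 (exact two-sided permutation p = 0.1, the smallest that 3 against 3 arrays allow), the opposite direction to a loss of transcript. The labels do not say where this probe set lies against the deleted part, and outside that part it would check nothing. In bulk RNA, fewer cells of a type and less RNA per cell cannot be told apart.

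Promoter windows were searched for elements of the response. The members were chosen as genes of that response, so a share above that of all genes may follow from the choice. RefSeq windows from 250 bases before to 50 after the start (GRCm38.p6) were at hand for 30 members. The ER stress response element (ERSE) consists of CCAAT and CCACG with a spacer of 9 bases, and is bound by NF-Y at CCAAT and by ATF6 or XBP1 at CCACG. Searched on both strands, it occurred in 9 of 30 member windows (30.0%) and in 39 of 32851 windows of all genes (0.119%). These 9 are chaperone, lectin, isomerase and degradation genes. Their sites are shown because they carry the element, with the element and its spacer in capitals.
Hspa5, chr2:34772025-34772043, read on the + strand: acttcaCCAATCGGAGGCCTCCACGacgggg
Hsp90b1, chr10:86705638-86705656, read on the - strand: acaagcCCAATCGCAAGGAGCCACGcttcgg
Hsp90b1, chr10:86705533-86705551, read on the + strand: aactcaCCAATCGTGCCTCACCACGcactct
Dnajc3, chr14:118937827-118937845, read on the + strand: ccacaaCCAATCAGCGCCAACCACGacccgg
Creld2, chr15:88819520-88819538, read on the - strand: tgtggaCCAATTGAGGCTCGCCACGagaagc
Calr, chr8:84847075-84847093, read on the + strand: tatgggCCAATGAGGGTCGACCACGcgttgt
Canx, chr11:50325800-50325818, read on the - strand: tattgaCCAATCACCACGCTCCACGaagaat
Pdia6, chr12:17266491-17266509, read on the + strand: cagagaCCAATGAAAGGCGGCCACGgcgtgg
Syvn1, chr19:6046532-6046550, read on the + strand: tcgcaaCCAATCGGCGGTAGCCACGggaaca
Derl3, chr10:75893242-75893260, read on the - strand: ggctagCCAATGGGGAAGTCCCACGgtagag

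The other elements were rarer among members. ERSE-II, which is ATTGG and CCACG with a spacer of 1 base, was searched the same way and found in 2 of 30 member windows and 0.0365% of all windows, in the chaperone gene Dnajb11 and the degradation gene Herpud1. The ATF4 element (CARE), searched as TGATGNAA on both strands, was found in 4 of 30 (13.3%) and 3.97% of all, namely in Trib3, Chac1, Asns and Herpud1. An XBP1 element (UPRE), searched as TGACGTGG on both strands, was found in 0 of 30 member windows and in 0.676% of all. A match describes letters and is not a site shown to be bound. The ERSE-II and CARE matches follow in that order.
Dnajb11, chr16:22857852-22857862, read on the + strand: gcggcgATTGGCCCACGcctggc
Herpud1, chr8:94386377-94386387, read on the + strand: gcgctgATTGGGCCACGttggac
Trib3, chr2:152344039-152344046, read on the + strand: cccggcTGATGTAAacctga
Chac1, chr2:119351049-119351056, read on the - strand: caggagTGATGCAAcggcag
Asns, chr6:7693225-7693232, read on the - strand: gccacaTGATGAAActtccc
Herpud1, chr8:94386317-94386324, read on the - strand: gcgggcTGATGCAAcccgcc

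Whole windows are given for the main chaperone, for the gene whose groups lay apart on every probe set, and for the only member that holds both ERSE-II and CARE, with the fixed letters of each element in capitals. The Calr element lies on the opposite strand.
Hspa5, chr2:34771840-34772139, + strand: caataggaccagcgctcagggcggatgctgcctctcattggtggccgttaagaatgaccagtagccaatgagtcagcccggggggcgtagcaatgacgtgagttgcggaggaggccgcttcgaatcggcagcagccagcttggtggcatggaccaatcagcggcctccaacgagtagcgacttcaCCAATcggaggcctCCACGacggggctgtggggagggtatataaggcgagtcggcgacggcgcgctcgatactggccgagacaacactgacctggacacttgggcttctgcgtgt
Calr, chr8:84846882-84847181, - strand: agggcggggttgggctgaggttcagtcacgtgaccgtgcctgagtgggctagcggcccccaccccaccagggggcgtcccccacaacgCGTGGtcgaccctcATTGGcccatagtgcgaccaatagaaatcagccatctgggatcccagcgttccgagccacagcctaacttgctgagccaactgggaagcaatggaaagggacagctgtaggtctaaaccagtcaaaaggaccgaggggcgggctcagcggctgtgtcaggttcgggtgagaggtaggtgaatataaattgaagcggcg
Herpud1, chr8:94386179-94386478, + strand: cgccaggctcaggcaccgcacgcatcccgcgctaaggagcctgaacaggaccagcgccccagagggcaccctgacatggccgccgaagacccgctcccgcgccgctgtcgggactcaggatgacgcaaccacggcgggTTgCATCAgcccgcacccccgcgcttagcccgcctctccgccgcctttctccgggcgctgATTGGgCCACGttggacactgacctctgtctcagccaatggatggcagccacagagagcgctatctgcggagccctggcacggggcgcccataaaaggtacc

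Of the 9 members with an ERSE 6 were lower and 3 higher, with a median difference of -0.06. The 18 tested members whose window held neither ERSE nor ERSE-II had a median of -0.05, with 13 lower and 5 higher. The 3 tested members with a CARE had a median of -0.12.

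Among the sensors no group was separate. Ern2, the epithelial IRE1, had the smallest p of them. It read 9.31, 9.23 and 9.65 in the arrays labelled knockout and 9.90, 9.60 and 9.71 in wild type, here and below in the order A, B, C. The array labelled knockout C lay above wild type B, and the other arrays did not cross. The difference was -0.34 (95% interval -0.73 to 0.06, limma adjusted p = 0.902), a 1.26-fold lower mean. The summed signal of 8 goblet markers moved with it: 63832 to 67535 in the arrays labelled knockout and 73699 to 82857 in wild type, with no overlap. This sum, like all marker sums here, was taken after quantile normalization only. The part of the goblet markers in the Ern2 value was not tested.

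Ern1, which encodes the widely expressed IRE1, read 8.75, 9.02 and 8.98 in the arrays labelled knockout and 9.15, 8.88 and 8.90 in wild type. Its difference was -0.05 (95% interval -0.44 to 0.33, limma adjusted p = 0.960), and of its 3 probe sets above the filter 2 were lower and 1 higher. The arrays were interleaved. Eif2ak3, the PERK gene, stood at -0.05 and Atf6 at 0.08, and for both wild type C was the lowest array.

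All 3 transcription factors were lower, with a median of -0.21 and overlapping groups. Xbp1, whose mRNA is spliced by IRE1, read 12.47, 12.42 and 12.56 in the arrays labelled knockout and 12.51, 12.61 and 12.49 in wild type, a difference of -0.05 (95% interval -0.29 to 0.18, limma adjusted p = 0.927). Its 4 probe sets did not move as 1: the dimmest was apart and lower by -0.36, and the others lay between -0.08 and 0.03. These signals are not a measure of Xbp1 splicing.

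Ddit3, which encodes the pro-apoptotic factor CHOP, differed most among the factors. It read 6.98, 7.22 and 7.32 in the arrays labelled knockout and 7.66, 6.997 and 8.28 in wild type. Wild type A and C lay above every array labelled knockout, and wild type B lay among them. The difference was -0.47 (95% interval -1.19 to 0.25, limma adjusted p = 0.902), and against wild type B alone it was 0.18. Atf4, the PERK-branch factor that acts on Ddit3, read 10.26, 10.08 and 9.90 against 10.37, 10.09 and 10.41, a difference of -0.21 (95% interval -0.58 to 0.16, limma adjusted p = 0.902). In Atf4 too wild type A and C were the highest arrays and wild type B lay within the other group. On the second probe set above the filter this order held for neither gene. That of Atf4 gave -0.0057, with the array labelled knockout A highest at 9.701 and wild type C at 9.24. That of Ddit3 gave -0.25, with wild type C at 6.62 and the array labelled knockout C above it at 6.78. Wild type A and C also had the highest Gapdh ratios, 1.10 and 1.45. That ratio did not overlap between the groups, so the ratio and the label cannot be told apart, and its part in these values was not tested. With the ratio in the model the difference was 0.18 for Ddit3 and -0.049 for Atf4. For Dnajb9, Syvn1 and Atf3, described below with the same order of arrays, it was -0.34, -0.20 and -0.22. Other genes with this order, among them Ern2 and Ppp1r15a, are left out here, so the group is partial. The genes given were picked by being highest on the arrays with the highest ratios, so such a shift follows from that choice. It shows nothing about the ratio. Over all members 29 were lower and 5 higher in that model, against 23 and 11 without the ratio.

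Both tested ATF4 targets were lower, with overlapping groups. Chac1, a glutathione-degrading enzyme gene, read 5.70, 5.51 and 5.67 in the arrays labelled knockout and 6.22, 5.77 and 5.597 in wild type. Only wild type A stood clearly above the rest, and the difference was -0.24 (95% interval -0.74 to 0.27, limma adjusted p = 0.902). Asns, the asparagine synthetase gene, stood at -0.12, with wild type B the highest array and wild type C the lowest. Trib3, dim and untested, read 5.05, 5.28 and 5.51 against 5.21, 4.73 and 4.25, with the groups overlapping at wild type A.

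**Figure D2:**
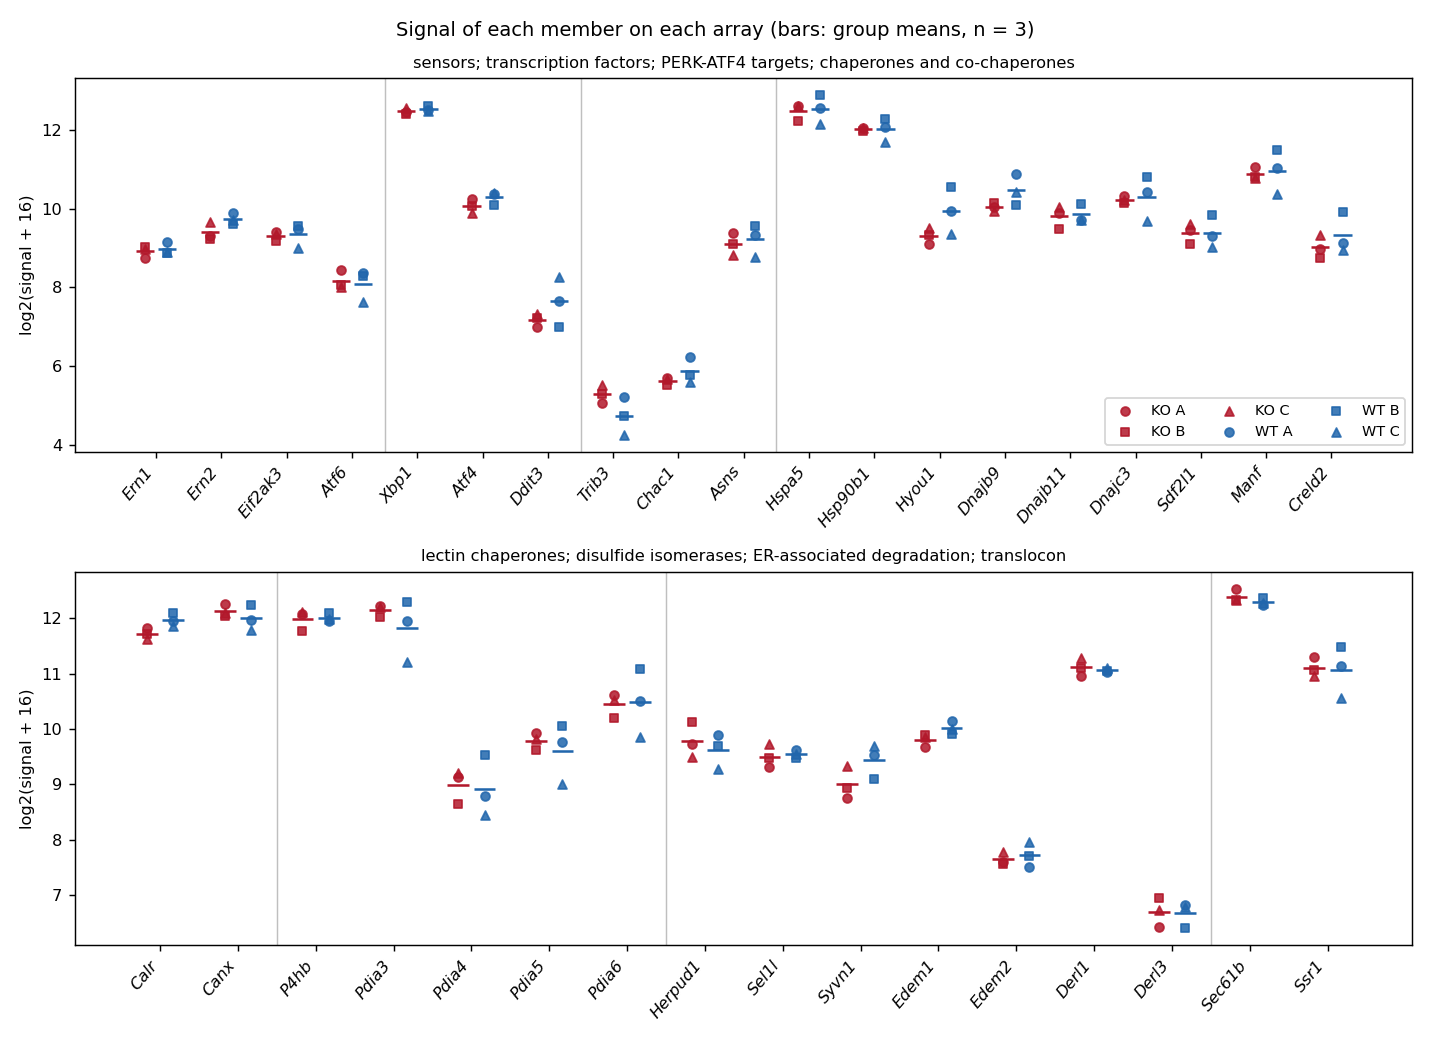
Each point is the log2(signal + 16) of 1 gene on 1 array, red for the arrays labelled knockout and blue for wild type, with circles, squares and triangles for A, B and C; bars are means of 3 arrays. The blue points of most folding genes spread more widely than the red ones, with the square (wild type B) on top and the triangle (wild type C) at the bottom, as in Pdia3 from 12.29 to 11.22.

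The ER chaperones are the targets by which the response is usually read. Hspa5 encodes BiP, the main Hsp70 of the ER and the brake on the sensors. It read 12.61, 12.23 and 12.62 in the arrays labelled knockout and 12.58, 12.89 and 12.16 in wild type. The highest and the lowest array were both wild type, and the difference was -0.06 (95% interval -0.51 to 0.39, limma adjusted p = 0.968). Of the 9 chaperones and co-chaperones 8 were lower and 1 higher, with a median of -0.07.

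Hyou1, a large Hsp70-like chaperone and exchange factor for BiP, had the largest difference of all members with all 6 arrays. It read 9.11, 9.33 and 9.50 in the arrays labelled knockout and 9.93, 10.56 and 9.36 in wild type. Wild type A and B lay above every array labelled knockout, and wild type C lay inside them. The means were 9.31 ± 0.20 and 9.95 ± 0.60 (SD, n = 3 each), 1.56-fold apart (log2 difference -0.64, 95% interval -1.30 to 0.02, limma adjusted p = 0.902). Without wild type B the difference was -0.33, smaller than those of Ddit3 (-0.79), Dnajb9 (-0.62), Syvn1 (-0.61) and Ern2 (-0.40). Its 2 other probe sets differed in sign, at -0.23 and 0.16.

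Dnajb9, a BiP co-chaperone that restrains IRE1, came next among the chaperones. It read 10.04, 10.15 and 9.94 in the arrays labelled knockout and 10.89, 10.09 and 10.44 in wild type, a difference of -0.43 (95% interval -0.91 to 0.05, limma adjusted p = 0.902). As in Ddit3, wild type A and C were above the other group and wild type B within it. Creld2, a secreted ER stress protein, stood at -0.31, with 9.93 in wild type B and 8.76 to 9.34 in the 5 other arrays. Dnajc3, Manf, Dnajb11, Sdf2l1 and Hsp90b1, the last the ER Hsp90, lay between -0.09 and 0.02.

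Calr, the lectin chaperone calreticulin that also stores calcium, was 1 of 2 members with separate groups. It read 11.83, 11.71 and 11.62 in the arrays labelled knockout and 11.96, 12.09 and 11.86 in wild type, so that every array labelled knockout lay below every wild-type array. The difference was -0.25 (95% interval -0.52 to 0.03, limma adjusted p = 0.902), and all 3 of its probe sets had separate groups, lower by -0.25 to -0.35. Over all genes 4.38% were apart and lower and 9.06% apart in either direction, so 2 of 34 is near the background; 0 of 34 were apart and higher, against 4.68% of all genes. The separation rests on quantile normalization: with arrays centred on their medians, or as deposited, the Calr groups overlapped, at -0.06 and 0.17. These values include the shift of all genes, whose medians were 0.20 and 0.43. Relative to that median the Calr difference was -0.26 under both scalings, so its direction and size were kept. As deposited, 4 members were apart and higher (Ern1, Sel1l, Derl1 and Derl3), against 24.4% of all genes, and 0 were apart and lower. Canx, the membrane-bound partner of calreticulin, stood at 0.13, with overlapping groups.

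Of the 5 disulfide isomerases, which form and reshuffle disulfide bonds, 2 were lower and 3 higher, with a median of 0.07. Pdia3, the isomerase that works with calreticulin and calnexin, read 12.22, 12.01 and 12.20 in the arrays labelled knockout and 11.95, 12.29 and 11.22 in wild type. Wild type C alone lay far below, and the difference was 0.33 (95% interval -0.24 to 0.90, limma adjusted p = 0.902). Without wild type B it was 0.56, and against wild type B alone -0.14. Pdia4, Pdia5 and Pdia6 stood at 0.07, 0.18 and -0.04, with wild type B highest and wild type C lowest in each. P4hb, the classical isomerase, stood at -0.02, and its wild-type values lay between 11.96 and 12.10.

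Of the 7 genes of ER-associated degradation 4 were lower and 3 higher, with a median of -0.05. Syvn1, the HRD1 ubiquitin ligase, read 8.75, 8.94 and 9.33 in the arrays labelled knockout and 9.54, 9.11 and 9.70 in wild type. Wild type A and C were above the other group and wild type B within it, as in Ddit3. The difference was -0.44 (95% interval -0.94 to 0.07, limma adjusted p = 0.902), and the other probe set gave -0.34. Sel1l, the partner of the ligase, stood at -0.05.

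Edem1, a lectin that hands misfolded glycoproteins to degradation, was the other member with separate groups. It read 9.68, 9.89 and 9.86 in the arrays labelled knockout and 10.14, 9.91 and 10.00 in wild type, so that the groups were apart by only the step from 9.89 to 9.91. The difference was -0.21 (95% interval -0.54 to 0.12, limma adjusted p = 0.902). Its second probe set overlapped at -0.39, and under both other scalings the groups overlapped. Edem2, Derl1, Derl3 and Herpud1 lay between -0.08 and 0.16.

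The translocon genes, which carry nascent chains into the ER, were both slightly higher. Sec61b read 12.53, 12.32 and 12.32 in the arrays labelled knockout and 12.24, 12.37 and 12.27 in wild type, a difference of 0.10 (95% interval -0.16 to 0.35, limma adjusted p = 0.902). Wild type B lay between the arrays labelled knockout. Ssr1 stood at 0.05, with wild type B highest at 11.47 and wild type C lowest at 10.57.

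**Figure D3:**
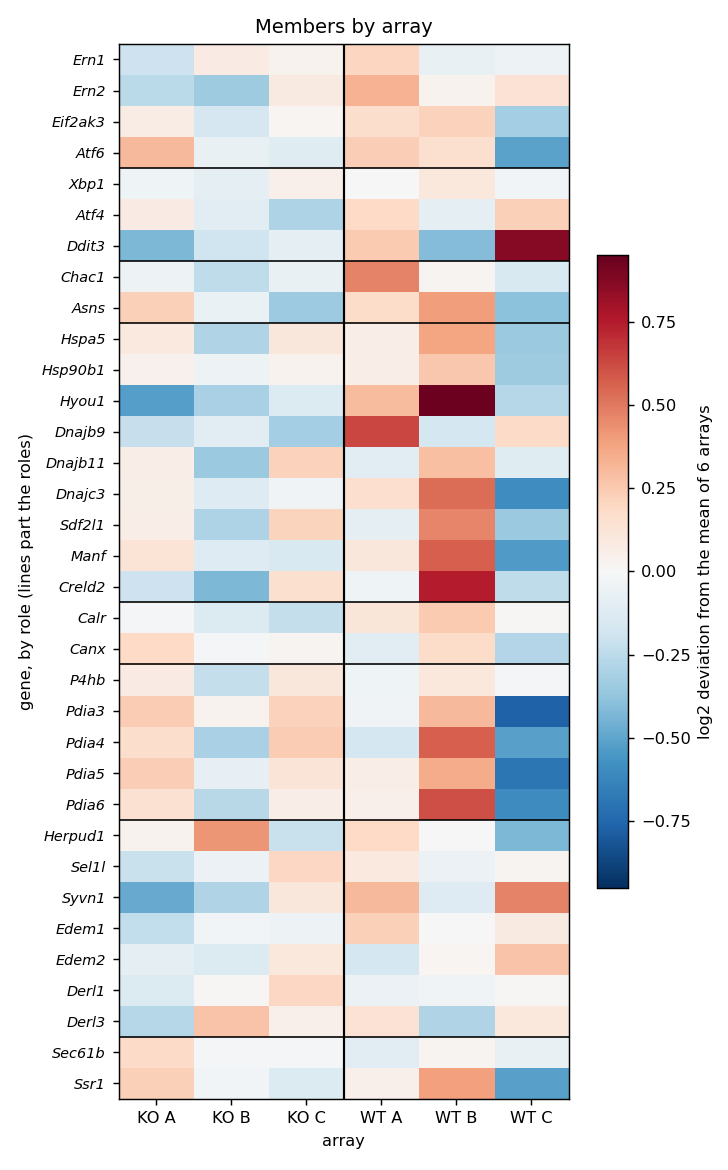
Colours give each tested member's log2 deviation from its own mean over 6 arrays, with rows by role and the 3 arrays labelled knockout on the left. Wild type B is red and wild type C blue through most chaperone and isomerase rows, while Ddit3 and Syvn1 are red in wild type C.

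Most of the 18 folding genes, but not all, shared an order of the wild-type arrays. The wild-type range was wider than the range of the other group in 15 of 18, against 70.9% of all genes. In 14 of the 18 chaperone, lectin, isomerase and translocon genes wild type B was the highest array, against 19% of all genes. In 11 of the 18 wild type C was the lowest, against 32.8% of all genes. Both held for 10 of 18, against 11.9% of all genes. With arrays centred on their medians both held for 16 of 18 (13.6% of all genes) and as deposited for 10 of 18 (5.03%). The mean deviation of the 18 genes was 0.38 in wild type B, -0.34 in wild type C and 0.05 in wild type A, and between -0.17 and 0.05 in the arrays labelled knockout. In the degradation class wild type B was the highest array in 0 of 7 genes. Whether the classes differ was not tested.

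Against single wild-type arrays the direction of the folding genes turned. The median over the 9 chaperones of wild type B minus the mean of the arrays labelled knockout was 0.47, that of wild type A 0.12 and that of wild type C -0.32. For the 5 isomerases these medians were 0.26, -0.03 and -0.58. Against wild type B alone, the array on which most of these genes were highest, 27 members were lower and 7 higher, which that choice of array favours. Without wild type B 15 were lower and 19 higher, and 4 had an unadjusted p under 0.05 (Ddit3, Dnajb9, Pdia3 and Syvn1), against 17.2% of all genes, and no member passed after adjustment.

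Markers of other cell types, secretory and not, also differed in wild type B. Of 9 measured pancreatic acinar markers 7 were highest there; Prss2, a trypsinogen gene, read 7.67 in wild type B and 4.97 to 5.23 in the 5 other arrays, while 6 of the 9 markers lay under the filter on average. The remaining acinar markers, Cela1 and Pdia2, were not highest there. Cela1 read 10.81 in wild type B and 10.44 to 11.16 in the other arrays, and Pdia2 read 4.97 and 4.09 to 5.11. The summed acinar signal, mostly that of Cela1, was 1762 to 2396 in the arrays labelled knockout and 1478 to 2618 in wild type. Of 8 plasma cell markers 7 were lowest in wild type B; Jchain, the joining chain of secreted IgA, read 8.81 there, 11.90 and 11.68 in wild type A and C, and 9.62 to 11.74 in the arrays labelled knockout. The remaining marker, Irf4, read 5.65 in wild type B and 5.23 to 5.93 in the other arrays. The summed plasma cell signal was 3330 to 6279 in the arrays labelled knockout and 2057 to 6435 in wild type. The low ends belonged to the array labelled knockout A and to wild type B. On these Sdc1 was the brightest plasma cell marker, at 11.16 and 10.51, where Jchain read 9.62 and 8.81. The part of acinar and plasma cell markers in the chaperone values was not tested. Summed signals overlapped between the groups for smooth muscle (271 to 664 in the arrays labelled knockout, 165 to 293 in wild type), fibroblast (392 to 2098, 1016 to 1517), T cell (274 to 573, 323 to 1276) and macrophage markers (227 to 744, 242 to 831). In each of these lists wild type B had the lowest sum of the wild-type arrays, as with the plasma cell markers. Among the arrays labelled knockout, A had the lowest sum for plasma cell, fibroblast, T cell and macrophage markers, but the highest for smooth muscle.

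**Figure D4:**
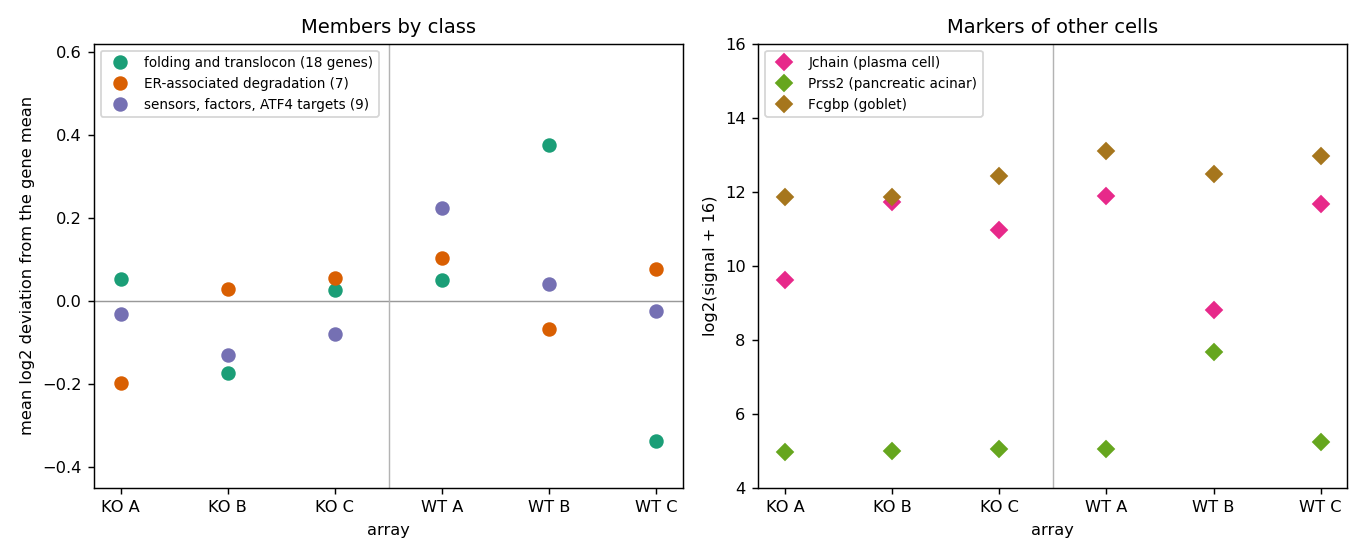
Left, the mean log2 deviation of the members of 3 classes on each array; right, log2(signal + 16) of 1 marker each of plasma, acinar and goblet cells. Wild type B has the highest folding-class mean (0.38) and Prss2 (7.67) and the lowest Jchain (8.81), and wild type C the lowest folding-class mean (-0.34).

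Other genes of the pathway, 115 tested in 5 lists, gave 0 calls in limma in either direction, and a median difference of 0.02. An unadjusted p under 0.05 was seen in 3, all lower, against 3.94% of all genes (2.2% lower). Groups were apart in 1 lower and 2 higher, against 4.38% and 4.68% of all genes. Among 19 other sensors and stress factors the 2 with an unadjusted p under 0.05 were Atf3, an early stress factor gene induced through ATF4, at -0.96, and Nupr1 at -0.60. Atf3 read 7.94, 8.79 and 8.12 in the arrays labelled knockout and 9.49, 8.41 and 9.83 in wild type, so that wild type B again lay within the other group. Ppp1r15a, whose product GADD34 restarts translation after PERK, stood at -0.85 and Nfe2l2 at 0.30.

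Among 28 other ER folding enzymes 20 were lower and 8 higher. Qsox1, a sulfhydryl oxidase gene of the secretory pathway, was apart, with 8.19, 7.83 and 7.92 in the arrays labelled knockout and 8.87, 8.45 and 8.84 in wild type (difference -0.74, limma adjusted p = 0.902). Under both other scalings the Qsox1 groups overlapped. Ero1a, the oxidase that recharges the isomerases, stood at -0.38, Agr2, the goblet cell isomerase, at -0.14 and Tmx3 at 0.29. Of the 23 other ATF4 targets 9 were lower and 14 higher, with Cth, the cystathionine lyase gene, apart and higher at 0.26, Ddit4 at 0.33, the amino acid transporter gene Slc3a2 at -0.35 and Stc2 at -0.34.

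Of the 19 other degradation genes 9 were lower and 10 higher. Rnf5, an ER membrane ubiquitin ligase gene, was apart and higher, with 9.33, 9.34 and 9.34 against 9.06, 9.04 and 9.05 (difference 0.29, limma adjusted p = 0.902). Rnf5 and Cth were also apart and higher under both other scalings. As deposited this held for 14 of the 115 other pathway genes and 24.4% of all genes. With arrays centred on their medians it held for 3 of the 115 and 6.91% of all genes. Ube2j2 stood at -0.25, Os9 at -0.42 and Ube2j1 at -0.22. In the 26 other translocon, signal peptidase and glycosylation genes 6 were lower and 20 higher, with a median of 0.08; the 4 smallest p-values belonged to Stt3b at 0.15, Spcs1 at 0.23, Srp72 at 0.30 and Sec11a at 0.17. The array pattern of the folding members recurred in 14 of these 26 and in 13 of the 28 other folding enzymes, with wild type B highest and wild type C lowest, against 11.9% of all genes. It held in 2 of the 19 other degradation genes. With arrays centred on their medians the pattern held in 18 of the 26, 15 of the 28 and 2 of the 19 (13.6% of all genes). As deposited it held in 4 of the 26, 8 of the 28 and 0 of the 19 (5.03% of all genes).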

How the data were processed

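Arrays of mouse colonic mucosa, 3 labelled p38a knockout and 3 wild type, were compared. The authors' table gives a linear intensity for each of 45101 probe sets on every array, made with MAS5 per the submitters' processing notes; its version and scaling target are not stated in the labels, and the trimmed means differed between arrays. Signals were taken as log2(signal + 16), quantile normalized and filtered at the 40th percentile of the probe set means (signal about 18.4). The brightest of a gene's probe sets with 1 symbol was used, from the platform annotation. limma 3.58.1 in R 4.3.3 (lmFit, eBayes with trend, 4 residual and 4.19 prior degrees of freedom) was run over 12437 genes with Benjamini-Hochberg adjustment at 0.05. Array number limits the precision. The steps were tested on simulated data, in which a gene's errors were independent and had the same spread on every array. The planted differences were larger than that of any member, so the simulation does not cover differences of the size seen here. The members, lists and tests were chosen with earlier results of these data known. Genes given array by array were those with separate groups, the smallest p of each role, and Ern1, Ern2, Xbp1, Hspa5, Ddit3 and Atf4; the array values of Dnajb9, Trib3, Qsox1, Rnf5 and Atf3 were added after they were seen. Of each other list the genes with the 4 smallest p-values were named. There were 20 alternative settings. Array weights by REML did not converge, so the gene-by-gene method was used. For 9 listed symbols no probe set was named. Promoter windows are RefSeq's (GRCm38.p6).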

Additional observations from a re-analysis of the deposited data

How the results depend on the processing

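In none of the 20 settings did a member pass in limma. Of 1079 differences of single genes under an alternative, 984 kept their direction and 95 turned, and none crossed the threshold. The count of genes called, 0 with all arrays, was 1 as deposited, 1 with arrays centred on their medians, 1 with a pseudocount of 64, 1 against wild type B alone, 1 with the Gapdh ratio in the model and 7 with array weights, and 0 to 6 with 1 array left out. The count of members with an unadjusted p under 0.05, 0 with all arrays, was 8 with array weights (16.1% of all genes), 6 against wild type B alone (3% of all genes) and 8 with the Gapdh ratio in the model (3.93% of all genes), and 0 to 4 with 1 array left out. Wild type B alone is an arm of 1 array, assumed to vary like the arrays labelled knockout, and the folding genes were mostly highest on it, so the count of 6 supports nothing. The 8 with the Gapdh ratio in the model, which does not overlap between the groups, were Calr, Creld2, Dnajc3, Hsp90b1, Hspa5, Hyou1, Manf and Pdia6, and 29 members were then lower and 5 higher. The median of the members was -0.33 with the Gapdh ratio in the model and -0.16 to 0.05 with 1 array left out. The cause of these shifts was not tested. With the replicate letter as a block, limma called 3 genes, no member among them, and 2 members, Hyou1 and Syvn1, had an unadjusted p under 0.05 (5.56% of all genes). Same-letter arrays correlated in their deviations at -0.04, -0.11 and 0.45, and arrays of different letters at -0.45 to 0.51. With 3 arrays per group these correlations cannot decide whether the letters mark pairs.

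Differences of opposite direction were as follows. Relative to the median of all genes, as deposited and with arrays centred on their medians alike, they were 0.030 for Ern1, 0.045 for Eif2ak3, 0.037 for Dnajb11, 0.00080 for Dnajc3, 0.081 for Sdf2l1, 0.026 for Pdia6, 0.052 for Sel1l and -0.016 for Derl3. Averaging a gene's probe sets gave 0.13 for Ern1, 0.0075 for Hspa5, 0.0092 for Dnajc3, 0.12 for Sel1l and -0.052 for Ssr1, and leaving out cross-hybridising probe sets gave 0.035 for Xbp1. Array weights gave -0.12 for Atf6, -0.053 for Hsp90b1, 0.043 for Edem2, -0.029 for Derl3 and -0.015 for Ssr1. Against wild type B alone they were 0.044 for Ern1, -0.11 for Atf6, 0.18 for Ddit3, -0.24 for Hsp90b1, -0.11 for Canx, -0.14 for Pdia3, -0.53 for Pdia4, -0.26 for Pdia5, 0.031 for Sel1l, -0.37 for Ssr1, 0.24 for Ero1a, 0.17 for Os9, -0.17 for Spcs1, -0.25 for Srp72 and -0.16 for Sec11a. The Gapdh ratio in the model gave -0.33 for Atf6, 0.18 for Ddit3, -0.32 for Hsp90b1, -0.097 for Canx, -0.28 for Pdia3, -0.51 for Pdia4, -0.42 for Pdia5, -0.069 for Herpud1, 0.081 for Edem2, -0.43 for Ssr1, 0.11 for Ppp1r15a, -0.073 for Tmx3, 0.039 for Ube2j2, 0.24 for Os9, -0.037 for Stt3b, -0.23 for Spcs1, -0.26 for Srp72 and -0.086 for Sec11a. With 1 array left out, genes that turned ranged from -0.11 to 0.033 (Ern1), -0.15 to 0.22 (Atf6), -0.16 to 0.048 (Sel1l), -0.20 to 0.26 (Ssr1), -0.22 to 0.054 (Eif2ak3), -0.25 to 0.12 (Hspa5), -0.17 to 0.12 (Dnajb11), -0.19 to 0.22 (Sdf2l1), -0.086 to 0.083 (P4hb), -0.35 to 0.26 (Pdia6), -0.015 to 0.30 (Herpud1), -0.10 to 0.17 (Derl3), -0.35 to 0.048 (Asns), -0.17 to 0.38 (Pdia4), -0.035 to 0.13 (Derl1), -0.38 to 0.18 (Dnajc3), -0.39 to 0.17 (Manf), -0.15 to 0.15 (Hsp90b1), -0.12 to 0.40 (Pdia5), -0.19 to 0.034 (Edem2) and -0.00053 to 0.42 (Spcs1).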
